A study of Mus musculus with 6 samples.

Results

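miR-132 and miR-212 are a pair of microRNAs cut from neighbouring hairpins, and both arms of each hairpin are described here in the kidney inner medulla of mice that lack Dicer1 in collecting duct cells. The members were chosen by name, as every entry of the deposited table named miR-132 or miR-212. This gave 4 of 1081 entries: mmu-miR-132-3p, mmu-miR-132-5p, mmu-miR-212-3p and mmu-miR-212-5p, written below without the prefix mmu, which stands for mouse. All 4 had a mean of at least 5 normalized reads over the libraries and were among the 461 entries tested.

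The libraries came from 3 DicerAQP2Cre+ mice, which lack Dicer1 in cells that express the water channel AQP2, and were set against libraries from 3 control mice. All mice were 1 month old, and each small RNA library was made from total RNA of inner medulla, a tissue that holds other cell types beside AQP2-expressing principal cells. The labels do not give the alleles carried by the controls. The columns holding the DicerAQP2Cre+ libraries are named CK01 to CK03, and reading CK as conditional knockout is an inference from the name on which every direction rests.

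A microRNA gene is transcribed as part of a long primary transcript, which is cut in the nucleus into a short hairpin. Dicer then removes the loop and leaves a duplex, of which usually 1 arm, the guide, is kept in the Argonaute protein while the other, the passenger, is degraded. The guide finds its target mRNAs mainly through its seed, bases 2 to 8 from the 5′ end. In neurons the transcription factor CREB, which is activated by cAMP signalling, induces the transcript shared by miR-132 and miR-212, and miR-132-3p is known to repress the GTPase-activating protein Arhgap32 (p250GAP). In the collecting duct, vasopressin raises cAMP and thereby the amount and the apical placement of AQP2. In mouse kidney, miR-132 has also been described in injury, where it acts on the proliferation of myofibroblasts.

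The 4 mature sequences are shown because the seeds decide which arms can share targets. They are RefSeq sequences (GRCm38.p6), written 5′ to 3′ with the seed in capitals.
miR-132-3p: uAACAGUCuacagccauggucg
miR-212-3p: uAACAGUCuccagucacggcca
miR-132-5p: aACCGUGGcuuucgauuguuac
miR-212-5p: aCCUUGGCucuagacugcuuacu
Both 3p arms carry the seed AACAGUC and are identical over the first 9 bases. Set base against base without gaps, they match at 17 of 22 positions. The 5p arms match at 9 of 22 positions and have different seeds. Of the 1081 entries, 916 could be paired with a RefSeq mature sequence, and 2 of these, the 3p arms of miR-132 and miR-212, carried AACAGUC. Each of the 5p seeds was carried by 1 entry.

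The hairpins are shown with both mature arms in capitals, the 5p arm first. Both lie on the plus strand of chromosome 11, at chr11:75173388-75173478 for Mir212 and chr11:75173682-75173747 for Mir132 in GRCm38.p6, 203 bases apart. The GENCODE M21 annotation of the same assembly places both inside intron 1 of the non-coding gene 1700016P03Rik. The submitters' processing notes name the older build mm9, and the deposited table holds no coordinates.
Mir212: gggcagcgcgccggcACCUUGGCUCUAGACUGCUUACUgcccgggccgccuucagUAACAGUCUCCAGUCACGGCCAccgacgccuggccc
Mir132: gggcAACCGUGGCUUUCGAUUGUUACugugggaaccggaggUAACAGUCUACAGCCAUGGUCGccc

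Depth ranged from 2934851 to 7614853 recovered reads per library, with the fewest in DicerAQP2Cre+ replicate 2. The most abundant entry, miR-181a-5p, took between 58.2% and 66.8% of the normalized reads in DicerAQP2Cre+ libraries and between 43.3% and 52.8% in controls, so the choice of scaling moves all fold changes together. Normalized reads are read counts divided by 1 size factor per library, and a pseudocount of 1 was added before taking log2, so that fold changes of scarce miRNAs come out too small. In limma 16 of 461 entries, or 3.47%, were higher in DicerAQP2Cre+ libraries at a Benjamini-Hochberg adjusted p under 0.05, and 23 (4.99%) were lower. In bulk tissue a change in the number of cells of a type and a change in RNA per cell cannot be told apart.

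The guide arms of both hairpins rose in DicerAQP2Cre+ inner medulla. The mean of miR-132-3p was 2.39-fold and that of miR-212-3p 2.89-fold higher, and both passed in limma over all tested entries, while the 5p arms had higher means but did not pass. Thus 2 of the 4 members were called higher, against 3.47% of all tested entries. In all 4 the DicerAQP2Cre+ and control values did not overlap, with every DicerAQP2Cre+ value above every control value, a pattern that 15.6% of tested entries showed.

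miR-132-3p, the guide arm of Mir132 and the most abundant of the 4, stood at 1394, 1303 and 775 normalized reads in DicerAQP2Cre+ replicates 1 to 3, against 532, 432 and 486 in control replicates 1 to 3. Replicate 3 was the lowest DicerAQP2Cre+ library and the nearest to the controls, which lay close together. The group means were 1157 ± 334 in DicerAQP2Cre+ libraries and 483 ± 49.97 in controls (SD, n = 3 each). The log2 fold change was 1.22 ± 0.26 (SE; 95% interval 0.64 to 1.79; limma adjusted p = 0.0164). In the order of abundance among the 1081 entries it was in place 86, 86 and 106 in DicerAQP2Cre+ replicates 1 to 3 and no higher than place 119 in the controls.

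miR-212-3p, the guide arm with the same seed, stood at 272, 235 and 134 normalized reads in DicerAQP2Cre+ replicates 1 to 3, against 79.2, 49.5 and 92.9 in control replicates 1 to 3. The order of the DicerAQP2Cre+ libraries was that of miR-132-3p, with replicate 3 again the lowest. The group means were 214 ± 71.6 in DicerAQP2Cre+ libraries and 73.9 ± 22.2 in controls (SD, n = 3 each). The log2 fold change was 1.50 ± 0.34 (SE; 95% interval 0.76 to 2.25; limma adjusted p = 0.0174), which placed it 10th from the highest of the 461 tested entries, while miR-132-3p was 27th.

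miR-212-5p, the passenger arm of Mir212, had 98.4, 50.9 and 46.0 normalized reads in DicerAQP2Cre+ replicates 1 to 3, against 28.5, 22.0 and 36.8 in control replicates 1 to 3. Replicate 1 was far above the other DicerAQP2Cre+ libraries, which lay nearer to the controls. Its log2 fold change of 1.08 ± 0.36 (SE; 95% interval 0.29 to 1.87) did not pass in limma over all entries (adjusted p = 0.0915, unadjusted p = 0.0121). On the recovered reads edgeR, which called 4.12% of entries higher, did not call it (adjusted p = 0.0576), whereas DESeq2, which called 6.29% higher, did (adjusted p = 0.0248).

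miR-132-5p, the passenger arm of Mir132, was the scarcest, with 28.1, 15.7 and 16.3 normalized reads in DicerAQP2Cre+ replicates 1 to 3, against 13.1, 14.1 and 12.6 in control replicates 1 to 3. These values rest on 38, 8 and 16 recovered reads in DicerAQP2Cre+ libraries and on 17, 18 and 13 in controls. For DicerAQP2Cre+ replicate 2 the 8 reads allow 6.77 to 30.9 normalized reads (exact 95% Poisson interval, counting error only), a range that holds all 3 control values. The log2 fold change of 0.51 ± 0.36 (SE) had a 95% interval from -0.28 to 1.31, and a change as large as that of miR-132-3p was inside it (limma adjusted p = 0.374).

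**Figure D1:**
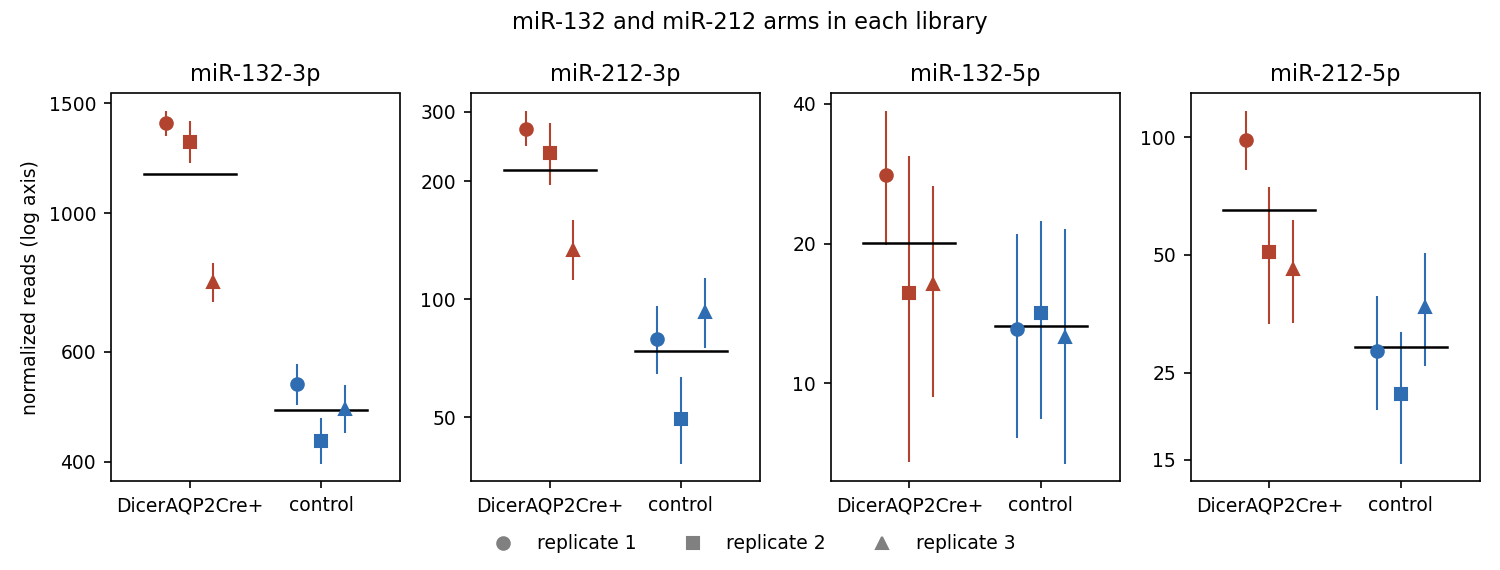
Normalized reads (log axis) of the 4 arms in each DicerAQP2Cre+ and control library, with a symbol per replicate, 95% Poisson counting intervals as bars and group means as black lines. Every DicerAQP2Cre+ value lies above every control value in each panel, replicate 3 is the lowest DicerAQP2Cre+ library for both 3p arms (775 and 134), and the counting intervals of miR-132-5p are as wide as its differences.

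**Figure D2:**
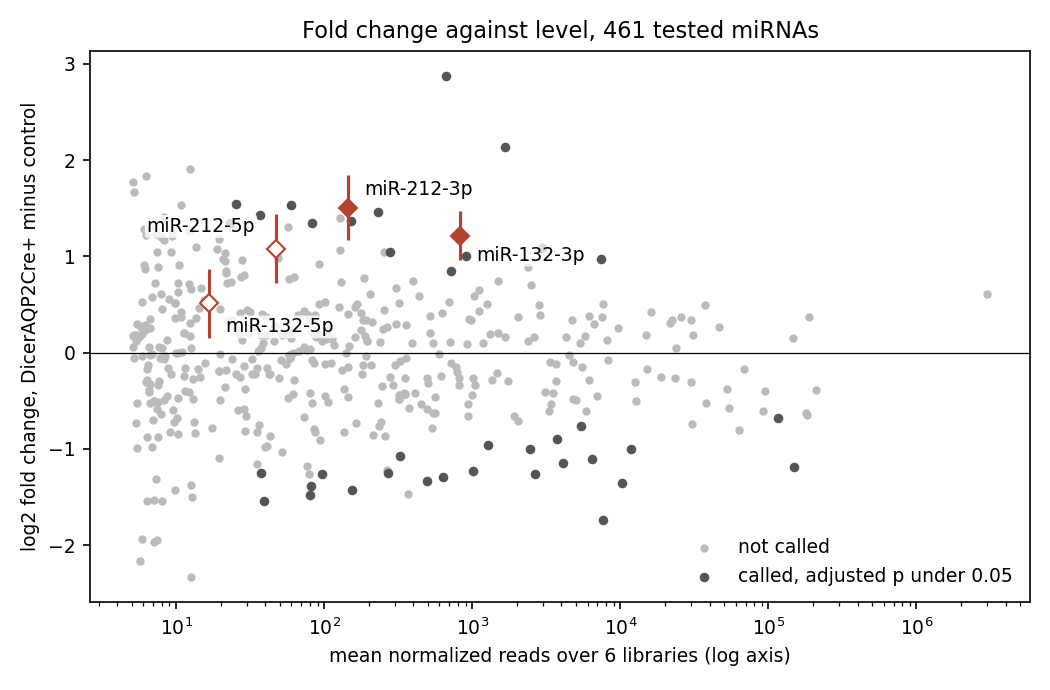
Log2 fold change (DicerAQP2Cre+ minus control) against mean normalized reads over the 6 libraries (log axis) for the 461 tested entries, with called entries dark and the 4 members as diamonds with SE bars, filled where called. miR-212-3p (1.50) and miR-132-3p (1.22) lie among the higher called entries, and the 5p arms (1.08 and 0.51) are positive but open.

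Because the 3p arms share a seed, their summed level was also described. Together they stood at 1666, 1538 and 909 normalized reads in DicerAQP2Cre+ replicates 1 to 3, against 611, 482 and 579 in control replicates 1 to 3. The means were 1371 ± 405 in DicerAQP2Cre+ libraries and 557 ± 67.4 in controls (SD, n = 3 each). miR-132-3p made up most of this sum in every library, and miR-212-3p stood at 0.195, 0.180 and 0.173 of its level in DicerAQP2Cre+ replicates 1 to 3 and at 0.149, 0.115 and 0.191 in control replicates 1 to 3. The mean log2 ratio of miR-212-3p to miR-132-3p was -2.45 ± 0.09 in DicerAQP2Cre+ libraries and -2.74 ± 0.36 in controls (SD, n = 3 each), a difference of 0.29. The groups overlapped, and the exact two-sided permutation test gave p = 0.3 (0.3 after adjustment over the 3 ratios tested). With 3 against 3 libraries this test cannot give a p below 0.1, so it cannot decide whether the 2 guide arms changed differently.

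The ratio of guide to passenger arm compares values within a library. For Mir132 the 3p arm was 49.6, 83.1 and 47.4 times the 5p arm in DicerAQP2Cre+ replicates 1 to 3, against 40.7, 30.6 and 38.6 times in control replicates 1 to 3. The groups did not overlap, and DicerAQP2Cre+ replicate 2, whose 5p arm had 8 reads, was far above the rest. The mean log2 ratio was 5.79 ± 0.44 in DicerAQP2Cre+ libraries and 5.08 ± 0.21 in controls (SD, n = 3 each), 0.70 higher in DicerAQP2Cre+ libraries. Without DicerAQP2Cre+ replicate 2 that difference was 0.45.

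For Mir212 the arms were less unequal. The 3p arm was 2.77, 4.62 and 2.91 times the 5p arm in DicerAQP2Cre+ replicates 1 to 3, against 2.78, 2.25 and 2.53 times in control replicates 1 to 3. DicerAQP2Cre+ replicate 2 stood apart again, and on linear ratios replicate 1 lay within the control range. The mean log2 ratio was 1.72 ± 0.40 in DicerAQP2Cre+ libraries and 1.30 ± 0.16 in controls (SD, n = 3 each), a difference of 0.42 that was 0.19 without DicerAQP2Cre+ replicate 2. For both hairpins the exact two-sided permutation p was 0.1, the smallest that 3 against 3 libraries allow, and 0.15 after adjustment over the 3 ratios, so neither arm ratio passed. These log2 ratios include the pseudocount of 1; without a pseudocount, a setting chosen after seeing the data in which the ratio is free of the library's scaling, the differences were 0.68 for Mir132 (exact permutation p = 0.1) and 0.41 for Mir212 (exact permutation p = 0.2). The 5p arm held 1.74 ± 0.48% of Mir132 reads in DicerAQP2Cre+ libraries and 2.70 ± 0.41% in controls, and 23.3 ± 4.79% of Mir212 reads in DicerAQP2Cre+ libraries and 28.5 ± 2.17% in controls (SD, n = 3 each).

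**Figure D3:**
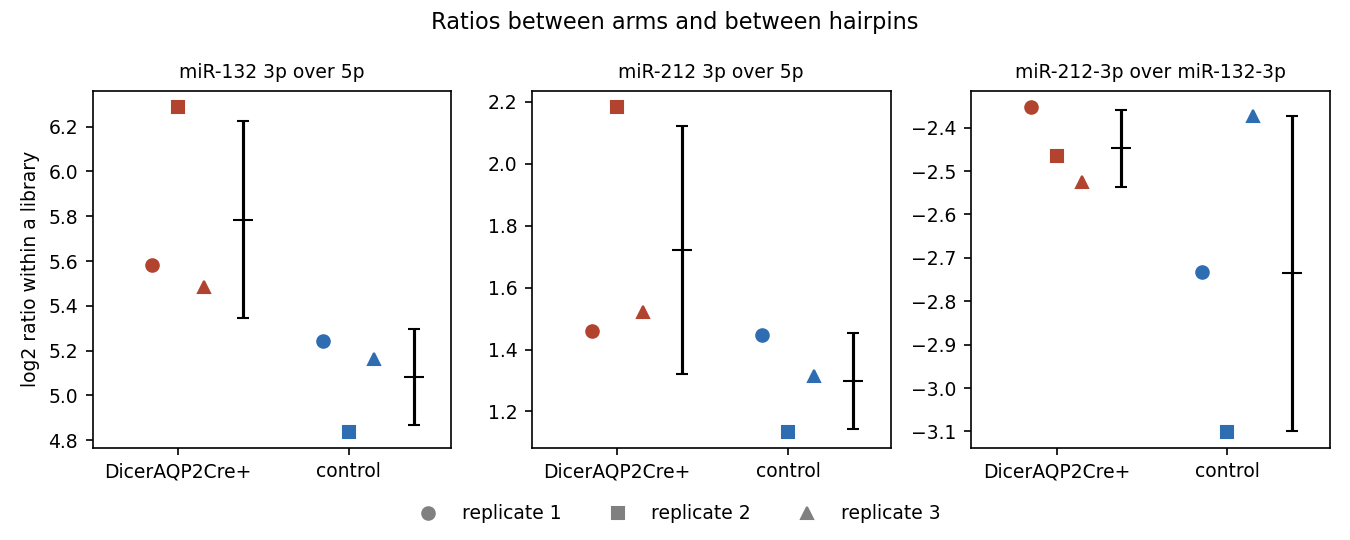
Log2 ratios within each library (pseudocount 1) of the 3p to the 5p arm of each hairpin and of miR-212-3p to miR-132-3p, with a symbol per replicate and black bars for mean ± SD. DicerAQP2Cre+ replicate 2 lies above the other libraries in both arm ratios (6.29 and 2.18), and the ratio between the hairpins overlaps between genotypes.

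The calls of both guide arms depended on single libraries, while their direction did not. With each library left out in turn, limma called miR-132-3p in 2 of 6 fits and miR-212-3p in 1 of 6, and the log2 fold changes ran from 1.06 to 1.48 and from 1.24 to 1.81. Each of these fits had 5 libraries in place of 6. Without control replicate 2, and likewise without control replicate 3, limma and edgeR called 0 of all tested entries in either direction. In those fits the loss of a call was not particular to the guide arms. Without control replicates 1, 2 and 3, in that order, the limma adjusted p of miR-132-3p was 0.05002, 0.0891 and 0.0708, and that of miR-212-3p 0.0581, 0.0990 and 0.0623. Without DicerAQP2Cre+ replicate 2 the adjusted p was 0.0759 for miR-132-3p and 0.0832 for miR-212-3p, and without DicerAQP2Cre+ replicate 1 it was 0.0479 and 0.0539. Without DicerAQP2Cre+ replicate 3, the library nearest to the controls, both were called (adjusted p = 0.000126 and 0.000640) and miR-212-5p was called too (log2 fold change 1.29, limma adjusted p = 0.0184). That fit called 43 of 457 tested entries higher and 62 lower, against 16 and 23 of 461 with all libraries, so the gain was not particular to these arms. With each library left out in turn, edgeR called miR-132-3p in 3 of 6 fits and miR-212-3p in 2 of 6, and DESeq2 called both in 6 of 6.

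**Figure D4:**
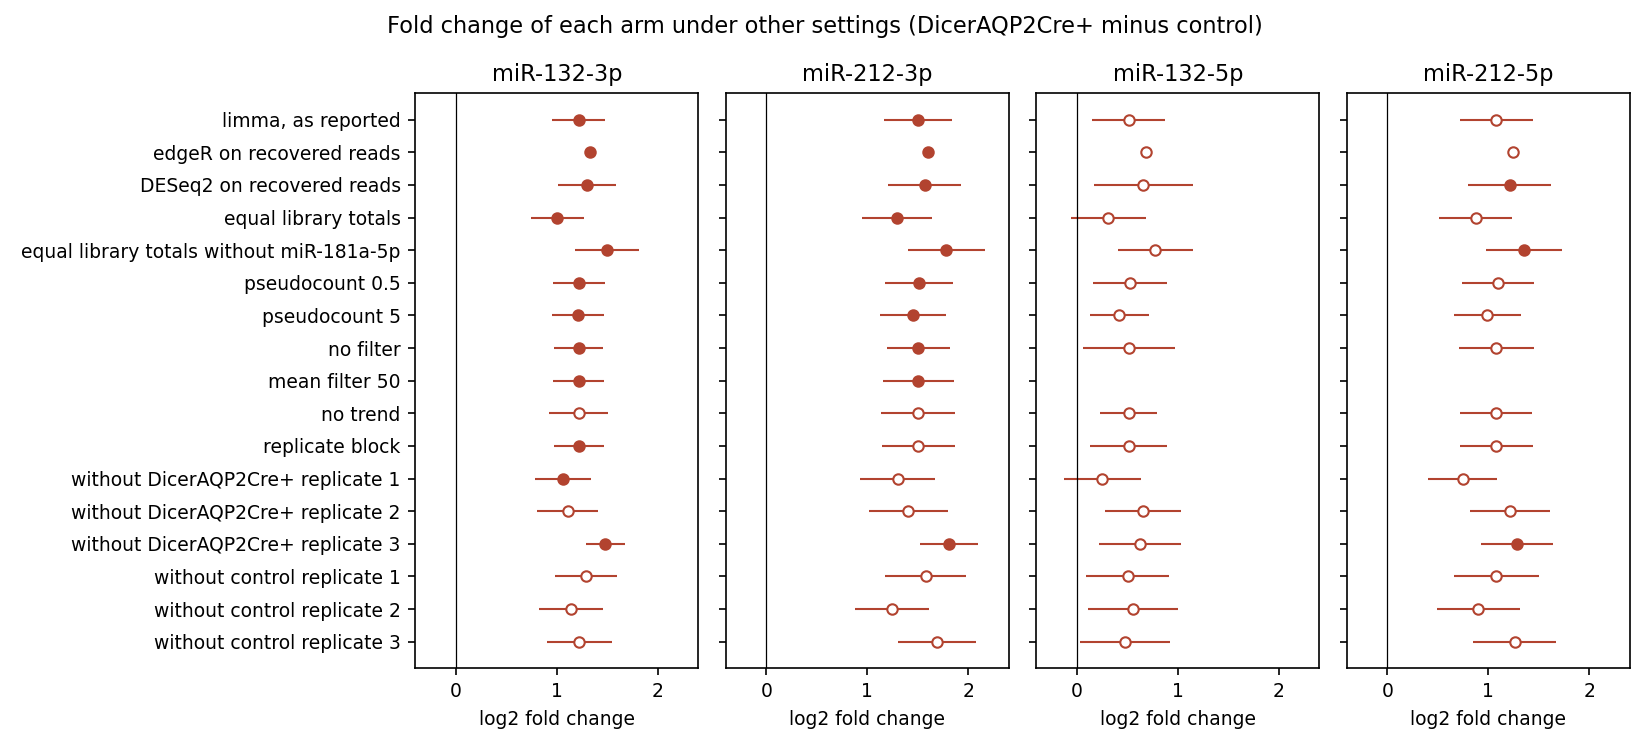
Log2 fold change (DicerAQP2Cre+ minus control) of each arm as reported and under 16 other settings, with SE bars where the tool gives one and filled points at an adjusted p under 0.05. All points lie above 0, the 3p arms lose their call without a trend and in several settings that leave out a library, miR-212-3p also with a replicate block, and the 5p arms are absent at a mean filter of 50.

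To place the guide arms among the other miRNAs, profiles were compared by the root mean square difference of log2 values over the 6 libraries, each entry centred on its own mean. This is a description, with the same libraries behind every entry. miR-8114 was the entry outside the hairpins nearest to both guide arms, at 0.13 from miR-132-3p and 0.22 from miR-212-3p. It had 241, 257 and 164 normalized reads in DicerAQP2Cre+ replicates 1 to 3, against 93.8, 69.2 and 90.0 in control replicates 1 to 3. Like the guide arms it was lowest, within its DicerAQP2Cre+ group, in replicate 3, a likeness that its choice by profile favours.

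After miR-8114, the nearest to miR-132-3p were miR-3968 (0.22), miR-676-3p (0.24), miR-145a-5p (0.24), a miRNA of smooth muscle, and miR-7688-5p (0.26). All 5 were called higher in limma, with log2 fold changes from 0.98 for miR-676-3p to 1.46 for miR-3968. Since they were chosen for profiles close to that of miR-132-3p, these calls are no separate result. For miR-212-3p the next were miR-485-3p (0.29), miR-6945-3p (0.34), miR-3968 (0.35) and miR-410-3p (0.37), of which miR-485-3p and miR-410-3p come from the imprinted Dlk1-Dio3 cluster. miR-6945-3p and miR-410-3p were not called (limma adjusted p = 0.0888 and 0.234). Among all other tested entries miR-212-3p was the 5th nearest to miR-132-3p, at 0.26, and miR-132-3p the second nearest to miR-212-3p. The passenger arm miR-212-5p was 13th from miR-132-3p and 4th from miR-212-3p, and the scarce miR-132-5p was 41st and 56th.

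**Figure D5:**
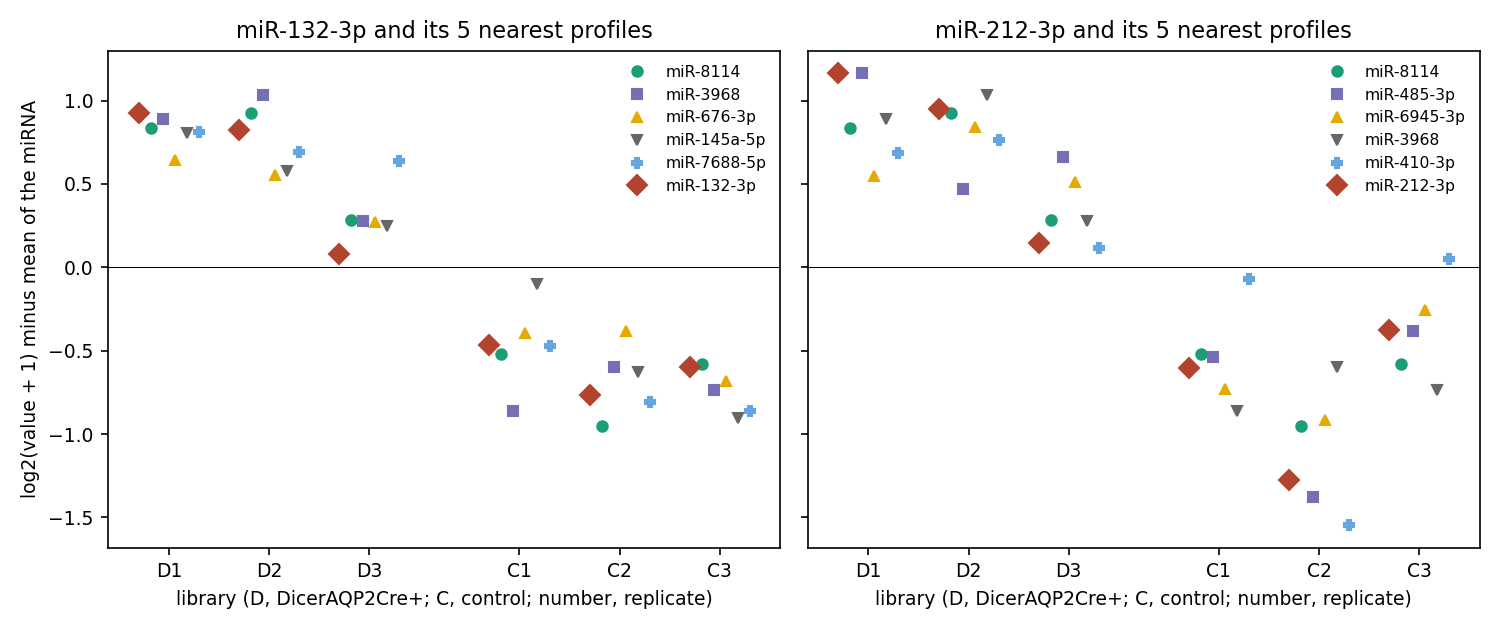
Log2(value + 1) of miR-132-3p (left) and miR-212-3p (right) and of the 5 nearest entries outside the hairpins, each minus its own mean, in the DicerAQP2Cre+ libraries (D1 to D3) and the control libraries (C1 to C3). Both guide arms are near 0 in D3 (0.08 and 0.14), below their own values in D1 and D2, and miR-8114 follows them most closely.

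Other miRNAs described elsewhere as regulated by neuronal activity or cAMP moved in both directions. Of 11 listed, 10 were in the table and 5 were tested. Of these 5, limma called 1 higher and 1 lower, while 3.47% of all tested entries were called higher and 4.99% lower. A log2 fold change above 0 was seen in 4 of the 5. At an unadjusted p under 0.05 in limma 3 were higher and 1 lower, against 60 and 69 of all 461 tested entries. The counts of calls were the same in edgeR, and DESeq2 called 2 higher and 1 lower. Their median log2 fold change was 0.67, against -0.01 over all tested entries. miR-375-3p, an endocrine miRNA whose transcription cAMP lowers in pancreatic beta cells, had 882, 1009 and 879 normalized reads in DicerAQP2Cre+ replicates 1 to 3, against 589, 549 and 417 in control replicates 1 to 3 (log2 fold change 0.84 ± 0.22, limma adjusted p = 0.0340). miR-9-5p, a miRNA of neural progenitors and neurons, fell, with 320, 412 and 369 normalized reads in DicerAQP2Cre+ libraries against 955, 977 and 772 in controls (-1.30 ± 0.22, limma adjusted p = 0.0126).

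Of the other tested members of that list, miR-134-5p, induced with its imprinted cluster by activity in neurons, stood at 0.85 ± 0.33 on the log2 scale (limma adjusted p = 0.130). The value for miR-184-3p was 0.67 ± 0.22 (limma adjusted p = 0.0915), and DESeq2, but not edgeR, called it higher. For miR-134-5p and miR-184-3p every DicerAQP2Cre+ value lay above every control value, as in 15.6% of all tested entries. miR-138-5p, which acts at dendritic spines, stood at 0.13 ± 0.38. Of 2 miRNAs described as acting on Aqp2, miR-32-5p averaged 0.65 ± 1.13 normalized reads in DicerAQP2Cre+ libraries and 1.16 ± 0.67 in controls (SD, n = 3 each), below the filter. The other, miR-137-3p, had no entry of that name in the table.

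Among 13 other miRNAs of kidney injury and fibrosis, all tested, limma called 1 higher and 0 lower, against 3.47% and 4.99% of all tested entries. At an unadjusted p under 0.05 in limma 2 were higher and 2 lower, against 60 and 69 of all 461 tested entries. The median log2 fold change of the 13 was 0.40. At an adjusted p under 0.05 edgeR also called 1 higher and 0 lower, and DESeq2 1 and 1. The called entry was miR-214-3p, a stromal miRNA induced in injured kidney, at 2765 ± 1443 normalized reads in DicerAQP2Cre+ libraries and 569 ± 157 in controls (log2 fold change 2.14 ± 0.41, adjusted p = 0.0148). The other arm of that hairpin, miR-214-5p, stood at 0.50 ± 0.39 (limma adjusted p = 0.423), and its values overlapped between the genotypes. miR-21a-5p, the best known injury miRNA of kidney, stood at 0.20 ± 0.38 (limma adjusted p = 0.776). The other arm of its hairpin, miR-21a-3p, stood at 0.79 ± 0.63 (limma adjusted p = 0.439), and its values overlapped between the genotypes. In edgeR and DESeq2 miR-21a-3p was higher at an unadjusted p under 0.05 but was not called. For miR-155-5p, of activated leukocytes, the value was -1.47 ± 0.41 (limma adjusted p = 0.0512), and it was the entry that DESeq2 called lower.

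Markers of other cell types were set beside these results, since miR-132 is made in several of them. The 8 stromal markers in the table summed to 25546 to 36776 normalized reads in DicerAQP2Cre+ libraries and to 21406 to 22899 in controls. Most of that was miR-143-3p (means 24153 in DicerAQP2Cre+ libraries and 19328 in controls), and the marker sums did not overlap between the groups. Of 7 tested, 2 rose in limma, miR-214-3p and miR-145a-5p (log2 fold change 1.09 ± 0.25, adjusted p = 0.0196), while miR-143-3p, the most abundant, stood at 0.31 ± 0.19 (adjusted p = 0.315). All 7 had a log2 fold change above 0, edgeR also called 2 higher, and DESeq2 called 3, adding miR-143-5p, where limma called 3.47% of all tested entries higher. The lowest DicerAQP2Cre+ sum was in replicate 3, as for both guide arms. Limma called 43 of 457 tested entries higher without that library, against 16 of 461 with it, so the shared order is not taken as a link. The part of stromal cells in the miR-132 and miR-212 values was not tested.

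The 9 miR-200 family entries, which mark epithelium, summed to 7648 to 11584 normalized reads in DicerAQP2Cre+ libraries and to 17621 to 18745 in controls. Of 8 tested, 5 fell in limma, the 3p arms of all 5 members, where limma called 4.99% of all tested entries lower. All 8 were lower at an unadjusted p under 0.05 in limma, as were 69 of all 461 tested entries. edgeR also called 5 lower, and DESeq2 called 6, adding miR-141-5p. The highest DicerAQP2Cre+ sum was in replicate 3. The part of this fall in the higher miR-132 and miR-212 values was not tested either.

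The neural list had 8 entries in the table, which summed to 476 to 535 normalized reads in DicerAQP2Cre+ libraries and to 902 to 1114 in controls. miR-9-5p made up most of that sum. Its defining member miR-124-3p, the main miRNA of neurons, was at 0 in all DicerAQP2Cre+ libraries and in 2 of 3 controls, with 1 read in control replicate 1. Of 5 neural entries tested limma called 1 lower and 0 higher, against 4.99% and 3.47% of all tested entries. The 1 lower entry was miR-9-5p, already counted above among the miRNAs of activity or cAMP. At an unadjusted p under 0.05 in limma 1 was lower and 1 higher, against 69 and 60 of all 461 tested entries. For the neural entries edgeR gave the same counts as limma, and DESeq2 called 1 lower and 1, miR-129-5p, higher.

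Of 6 leukocyte entries tested 0 were called in limma and 0 in edgeR, while DESeq2 called 1 lower, miR-155-5p. At an unadjusted p under 0.05 in limma 1 was higher and 1 lower, against 60 and 69 of all 461 tested entries. The 8 in the table summed to 17293 to 40084 normalized reads in DicerAQP2Cre+ libraries and to 13559 to 36778 in controls. Most of that sum was miR-150-5p, a lymphocyte miRNA, with 15893, 19416 and 38097 normalized reads in DicerAQP2Cre+ replicates 1 to 3, against 35203, 13483 and 12156 in control replicates 1 to 3. miR-142a-3p, the pan-leukocyte miRNA, had 1 read in DicerAQP2Cre+ replicate 1 and 0 in the other libraries, and the other arm, miR-142a-5p, averaged 7.41 ± 7.73 normalized reads in DicerAQP2Cre+ libraries and 4.90 ± 3.11 in controls (SD, n = 3 each). The 2 endothelial entries summed to 830 to 1245 in DicerAQP2Cre+ libraries and to 961 to 1229 in controls. The 3 erythroid entries summed to 13.7 to 26.6 in DicerAQP2Cre+ libraries and to 18.1 to 33.9 in controls. Both endothelial entries but only 1 erythroid entry were tested, with 0 called and 0 at an unadjusted p under 0.05 in limma, edgeR and DESeq2. Over all tested entries limma called 3.47% higher and 4.99% lower. The sums of these 3 lists overlapped between the genotypes.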

How the data were processed

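Mature miRNAs were counted in small RNA libraries of 3 DicerAQP2Cre+ and 3 control mice. The deposited values are signal values, read counts divided by 1 size factor per library; FastQC 0.11.3, DESeq2 and build mm9 are named in the submitters' processing notes, while aligner, counter and miRNA release are not stated there. Dividing each column by its smallest value above 0 gave whole reads (100% of values within 0.01 read).

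The main test was limma 3.58.1 (R 4.3.3) with a mean-variance trend on log2(value + 1), for 461 entries with a mean of at least 5, unpaired and two-sided, with Benjamini-Hochberg adjustment over all of them. edgeR 4.0.16 (19 higher, 23 lower) and DESeq2 1.42.0 (29 higher, 31 lower) were run on recovered reads, against 16 higher and 23 lower in limma. Ratios were compared by exact permutation tests. The fits were tested on simulated data. Poisson intervals cover counting error only. Intervals of fold changes rest on the spread between libraries, which limma moves toward the mean-variance trend over all tested entries.

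The members and lists were chosen with earlier results of these data known. Named miRNAs are the 4 members, the 5 nearest profiles of each guide arm, list members past the threshold, defining markers and miR-181a-5p. Further ones, miR-134-5p, miR-184-3p, miR-138-5p, miR-21a-5p, miR-21a-3p, miR-214-5p, miR-155-5p, miR-129-5p, miR-143-5p, miR-141-5p and miR-32-5p, were named after their values were seen. Sequences were matched by miRNA name to RefSeq (GRCm38.p6). The design describes separate mice, so the spread includes differences between animals. Settings tried were the tools, scaling, pseudocount, filter, trend, a replicate block and leaving out each library; edgeR and DESeq2 with a library left out, and ratios without a pseudocount, were added after seeing the data.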

Additional observations from a re-analysis of the deposited data

How the results depend on the processing

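The log2 fold changes of all 4 arms stayed above 0 in every setting that tested them. A mean filter of 50 left miR-132-5p and miR-212-5p untested. Without a mean-variance trend miR-132-3p (1.22, limma adjusted p = 0.0575) and miR-212-3p (1.50, adjusted p = 0.0591) lost their calls, and the counts were 7 higher and 11 lower against 16 and 23; the cause was not tested. miR-212-5p was called by DESeq2 (1.21) and with equal totals set without miR-181a-5p (1.36, limma adjusted p = 0.0468). Higher entries numbered 29 by DESeq2 and 36 with totals set without miR-181a-5p, where 14 were lower; with equal totals 48 were lower. Over all entries the median change, -0.01 on the log2 scale, became -0.21 with equal totals and 0.25 without miR-181a-5p, and the share of higher calls was 22.6% and 72.0% in these against 41.0%, while relative to that median miR-132-3p stood at 1.21 to 1.24 and miR-212-3p at 1.50 to 1.53.

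Same-numbered libraries did not deviate together (correlations -0.06, 0.01 and 0.06), 1 of 3 DicerAQP2Cre+ libraries correlated best with its own number, and the numbers were not taken as pairs. With the replicate block 14 entries were higher and 18 lower, miR-132-3p was called (adjusted p = 0.0386) and miR-212-3p, at 1.50, was not (adjusted p = 0.0505); the ratio differences were 0.70, 0.42 and 0.29 as before.

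With 1 library left out, over limma, edgeR and DESeq2, the log2 fold changes ran from 1.06 to 1.57 for miR-132-3p, 1.24 to 1.87 for miR-212-3p, 0.75 to 1.49 for miR-212-5p and 0.25 to 0.88 for miR-132-5p. Higher calls ran from 0 to 66 and lower calls from 0 to 62. Limma called 0 in either direction without control replicate 2 (40 higher and 43 lower at an unadjusted p under 0.05) and without control replicate 3 (45 and 47), and so did edgeR (42 and 42, and 53 and 42 unadjusted), while DESeq2 called 14 higher and 15 lower, and 18 and 20. The difference in log2 ratio ran from 0.45 to 0.85 for the Mir132 arms, 0.19 to 0.55 for the Mir212 arms and 0.11 to 0.47 between the guide arms. The 5p arm of Mir132 had the fewest reads, 8 to 38 per library. Without a pseudocount the ratio differences were 0.68, 0.41 and 0.30, and the Mir212 arms then overlapped between genotypes.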
